A study of Drosophila melanogaster with 4 samples.

Results

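The Wingless pathway genes described here are 10 genes of the 15627 named genes in the deposited expression table, chosen by name for their place in the pathway. They are the ligand genes wg, Wnt4 and Wnt6, the receptor and coreceptor genes fz, fz2, fz3 and arr, the transducer gene arm, the feedback antagonist gene nkd and the glypican gene dally. All 10 were found under these symbols, and all exceeded 1 FPKM in both RNA libraries. FPKM counts sequenced fragments for each kilobase of a transcript, relative to all those mapped in the library, so levels of different genes can be set side by side within a library.

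RNA was sequenced from wing imaginal discs of Drosophila melanogaster larvae of the third instar grown at 25 °C, with 1 library of wild type and 1 of Polycomb RNAi. The disc is the larval epithelium that forms the wing and the body wall around it. Wild type is the driver line itself, Act5c-Gal4, whose genotype label lists the markers y1 and w* and the insertion P{Act5C-GAL4}25FO1 over the balancer CyO, y+. In it an actin promoter expresses the yeast activator GAL4 broadly. CyO is a multiply inverted form of the second chromosome. The RNAi discs carry the same markers and insertion with UAS-dsRNA Polycomb, a GAL4-driven transgene against the gene of the PRC1 subunit Polycomb, and their label names no balancer. H4K20me1, a histone mark, was mapped in wild-type discs only, and its peaks were not used here because their build was not matched to a gene annotation. With 1 library per genotype no replicate error and no p-value can be given, so "higher" and "lower" compare these libraries alone.

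Wingless is a lipid-modified secreted protein that spreads through the disc on cell-surface proteoglycans such as Dally. It binds a Frizzled receptor together with the coreceptor Arrow, which stops the destruction of Armadillo, the fly beta-catenin. Armadillo then enters the nucleus and joins the DNA-binding protein Pangolin to switch on target genes. In the wing disc wg is transcribed along the dorsoventral boundary, in rings around the pouch and in a stripe across the notum.

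Markers of the labelled tissue were present in both libraries, as was RNA of other cells. All 13 wing disc epithelium markers exceeded 1 FPKM in both, with a sum of 1040 FPKM in wild-type discs and 833 FPKM in RNAi discs. Of these, ci, vg and ap were lower by 2-fold or more and none was higher by as much. In 4 others, hth, tsh, zfh2 and pnr, the value was higher in RNAi discs. Calls of 2-fold add 1 FPKM to both values, which can leave out a low gene whose FPKM ratio passes 2. For this list and the marker lists below, the shares among all 8800 genes reaching 1 FPKM in either library were 3.20% lower and 4.41% higher. The summed level of 8 haemocyte markers was 73.1 and 118 FPKM, with He, Hml, Pxn and eater higher by 2-fold or more. NimC1 and srp, with FPKM ratios of 2.32 and 2.07, fell short of the call only through the added 1 FPKM. Over 6 salivary gland markers the sum was 43.7 and 143 FPKM, with all but Sgs4 called higher by 2-fold or more. Sgs4, at 0.162 and 1.28 FPKM, fell short for the same reason. The sum of 8 tracheal markers was 759 and 483 FPKM, with 2 lower by 2-fold or more, obst-A (220 and 20.2 FPKM) and trh, while kni and knrl had higher values in RNAi discs. That of 8 fat body markers was 4303 and 2747 FPKM, with 1 lower by as much, Lsp1gamma (1675 and 465 FPKM), while Fbp1 and Fbp2 had higher values in RNAi discs. That of 7 myoblast markers was 67.7 and 67.0 FPKM, with lbe at 0 in both. That of 7 eye-antennal markers was 29.9 and 29.5 FPKM. Of the 6 eye-antennal markers reaching 1 FPKM in either library, 3 had higher values in RNAi discs and 3 had lower ones. Only oc (0.0985 and 1.37 FPKM) was higher by 2-fold or more, and ss (6.91 and 3.32 FPKM) fell short of being called lower. Pc, the gene targeted by the RNAi, was 14.6 and 13.0 FPKM, a value in which reads of the transgene could not be separated.

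As a set, the pathway genes kept nearly the same levels in both libraries. None of the 10 was at least 2-fold higher or lower on the scale used for differences, log2((Polycomb RNAi FPKM + 1)/(wild-type FPKM + 1)), which understates the change of low genes. Of the 8800 genes reaching 1 FPKM in either library, 4.41% were higher by 2-fold or more in RNAi discs and 3.20% were lower by as much. At those background shares a set of this size holds few or no such genes, so the count does not set the pathway genes apart. The median log2 difference was -0.024 over the 10 genes and -0.0032 over all tested genes. Of the 10, 5 lay inside the quartiles of all tested genes, -0.14 and 0.14, and 4 differences were above 0 and 6 below. The sum over the 10 genes was 909 FPKM in wild-type discs and 887 FPKM in RNAi discs. From the highest level to the lowest, the order in wild type was arm, fz2, dally, arr, fz, wg, nkd, fz3, Wnt6 and Wnt4, and in Polycomb RNAi arr moved behind fz and wg. Without replicates, neighbours in these orders cannot be ranked against an error. In whole discs, fewer cells of a type and less RNA per cell cannot be told apart.

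**Figure D1:**
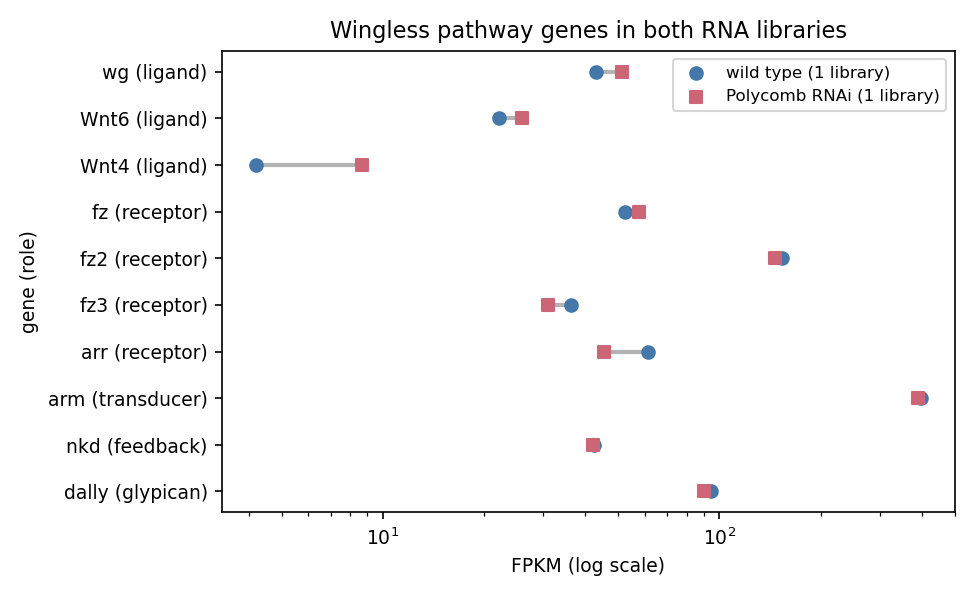
Level of each of the 10 Wingless pathway genes in FPKM on a log axis, with 1 point per library (circle, wild type; square, Polycomb RNAi) and a grey line joining them; there are no replicates and no error bars. Wnt4 has the widest gap, from 4.19 to 8.67 FPKM, and the points of nkd, arm, fz2 and dally nearly coincide.

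The 3 ligand genes all had higher values in the Polycomb RNAi library. wg, which encodes Wingless, was 43.0 FPKM in wild-type discs and 51.3 FPKM in RNAi discs, a log2 difference of 0.25. Wnt6, whose product is needed for the maxillary palps of the fly head, was 22.2 and 26.0 FPKM, a log2 difference of 0.22. These values are 1.19 and 1.17 times the wild-type ones. Of all tested genes, 31.2% and 35.5% lay at least as far apart in either direction as wg and Wnt6. Both differences lay above 0.09, the upper quartile of genes with a mean of 20 to 400 FPKM.

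Wnt4, whose product steers cell movement in the fly ovary, showed the widest difference of the 10 genes. It was the lowest of the set, at 4.19 FPKM in wild-type discs and 8.67 FPKM in RNAi discs, a ratio of 2.07 in FPKM. On the log2 scale with a pseudocount of 1 the difference was 0.90, short of 2-fold, and 9.01% of tested genes lay at least as far apart. With a pseudocount of 0.1 it was 1.03, past 2-fold. At a threshold of 1.5-fold, Wnt4 was the single gene of the 10 counted as higher and none was lower, against 8.17% and 6.47% of all tested genes.

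The 3 ligand genes stand next to each other on chromosome arm 2L, in the order Wnt4, wg, Wnt6, followed by Wnt10. Within this cluster the levels ran from below 1 FPKM to over 40 FPKM. Wnt10 was 0.361 FPKM in wild-type discs and 0.373 FPKM in RNAi discs, and CG31909, which overlaps Wnt4, was listed at 0 and at 0.427 FPKM. wg exceeded Wnt6 1.94-fold in wild type and 1.97-fold in Polycomb RNAi, nearly the same ratio. It exceeded Wnt4 10.3-fold and 5.92-fold.

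Outside the cluster, the ligand gene Wnt2 was lower in Polycomb RNAi. It was 33.6 FPKM in wild-type discs and 8.31 FPKM in RNAi discs, a log2 difference of -1.89 and a ratio of 4.04. Wnt5, whose product guides axons through the receptor Derailed, was 33.2 and 35.9 FPKM, and wntD was listed at 0 in both. The makeup of the ligand RNA therefore differed between the libraries although the sum over all 7 Wnt genes was 137 and 131 FPKM. The share of Wnt2 in that sum was 24.6% in wild type and 6.36% in Polycomb RNAi. That of wg was 31.5% and 39.3%, that of Wnt5 24.3% and 27.5%, that of Wnt6 16.3% and 19.9%, and that of Wnt4 3.07% and 6.64%. The marker sums of trachea and fat body, which rest on few of their genes, were lower in RNAi discs and those of haemocytes and salivary gland higher, and their part in the Wnt2 and Wnt4 values was not tested.

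**Figure D2:**
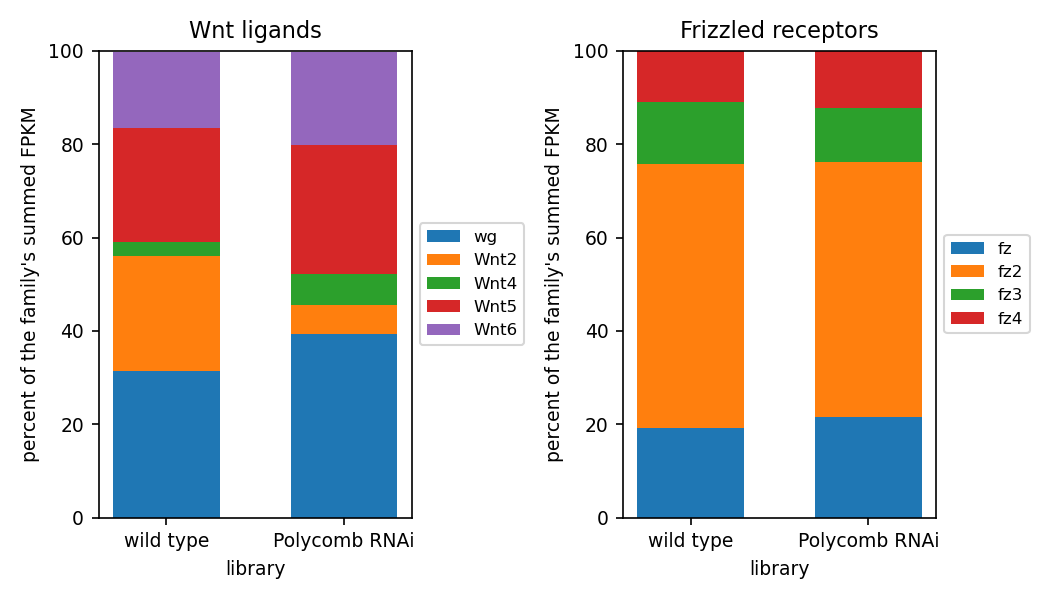
Share of each gene in the summed FPKM of the Wnt ligand genes (left) and of the Frizzled receptor genes (right), in percent, for the wild-type and the Polycomb RNAi library. The Wnt2 block is 24.6% in wild type and 6.36% in Polycomb RNAi, while the Frizzled blocks are nearly alike; Wnt10 and wntD, together below 1%, are not drawn.

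The Frizzled receptor genes were close between the libraries. fz, which encodes a Wingless receptor that also orients cells in the plane of the epithelium, was 52.6 FPKM in wild-type discs and 57.7 FPKM in RNAi discs, a log2 difference of 0.13. fz2, which encodes a receptor of high affinity for Wingless, was 154 and 146 FPKM, a difference of -0.07. fz3, which encodes a receptor of low affinity and is itself induced by Wingless signalling, was 36.3 and 31.0 FPKM, a difference of -0.22. Of these, fz had the higher value in Polycomb RNAi, and fz2 and fz3 had the higher value in wild type. fz2 held the largest share of the Frizzled RNA in both libraries, 56.4% and 54.6% of the sum over fz, fz2, fz3 and fz4. It exceeded fz 2.92-fold in wild type and 2.53-fold in Polycomb RNAi. fz4, the remaining family gene, was 29.8 and 32.6 FPKM.

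arr, which encodes the LRP-type coreceptor Arrow, had the largest negative difference among the 10 genes. It was 61.5 FPKM in wild-type discs and 45.3 FPKM in RNAi discs, a log2 difference of -0.43, with 19.3% of tested genes at least as far apart. The wild-type value was 1.36 times the RNAi one, within 1.5-fold. In wild type the level of arr was above that of fz, and in Polycomb RNAi it was below that of fz and of wg.

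arm was the most abundant of the 10 genes, at 399 FPKM in wild-type discs and 390 FPKM in RNAi discs. Its log2 difference was -0.03, and its level lay above that of 97.2% of genes reaching 1 FPKM in wild type. Armadillo serves both in signalling and as a partner of cadherin in adherens junctions. The cadherin gene shg was 95.4 and 89.0 FPKM and alpha-Cat, the gene of a further junction protein, was 147 and 145 FPKM. The mitochondrial ribosomal protein gene mRpL16 overlaps arm in the Release 6 gene table and was 54.9 and 52.0 FPKM. The libraries were made without strand information, so reads in the shared stretch could not be assigned to a strand.

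The antagonist gene nkd, a direct target that is switched on by Wingless signalling, had nearly equal values. It was 42.4 FPKM in wild-type discs and 42.0 FPKM in RNAi discs, a log2 difference of -0.01, the smallest of the 10. Its product binds Dishevelled and dampens the signal. dally, whose product is a glypican that binds Wingless and the BMP ligand Dpp, was 94.6 and 89.8 FPKM, a difference of -0.08. The related glypican gene dlp was 51.4 FPKM in both libraries.

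**Figure D3:**
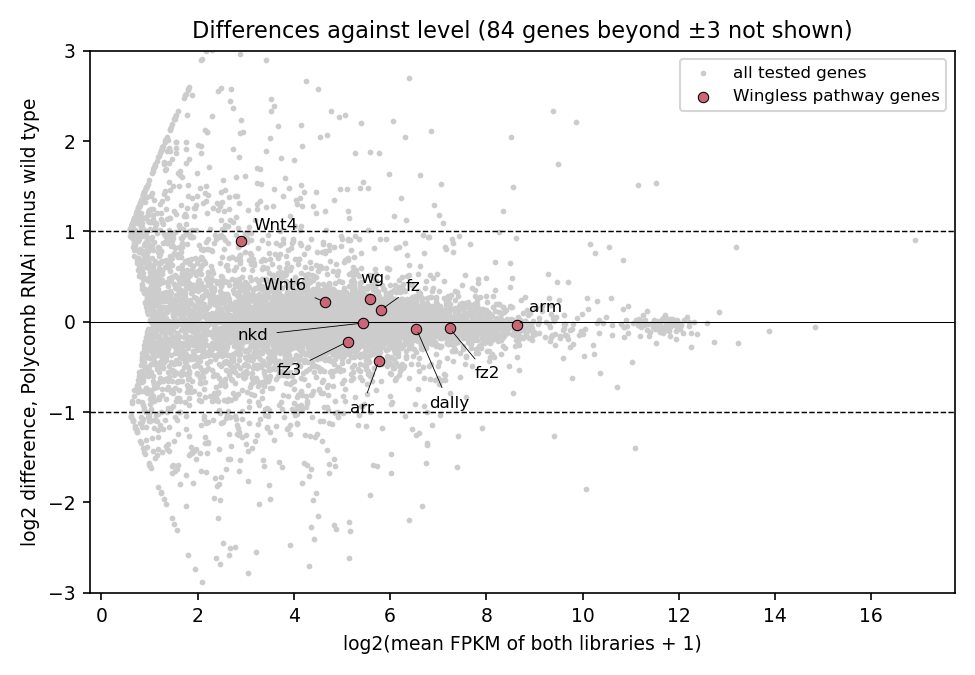
Log2 difference between Polycomb RNAi and wild type against log2 of the mean FPKM plus 1, for all 8800 tested genes (grey) and the 10 Wingless pathway genes (red, named); dashed lines mark 2-fold, and 84 genes beyond 3 in either direction lie off the axis. All 10 pathway genes lie between the dashed lines, with Wnt4 just below the upper one.

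Genes with a mean of 20 to 400 FPKM differed less between the libraries than all tested genes did. Of the 10 pathway genes, 9 lay in that range, all but Wnt4. Among the 4488 genes with a mean of 20 to 400 FPKM, a range picked after the levels were seen, 1.18% were at least 2-fold higher and 1.43% at least 2-fold lower. Their quartiles were -0.11 and 0.09. The values of wg, Wnt6 and fz lay above these quartiles, those of fz3 and arr below them, and those of fz2, arm, nkd and dally inside.

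The 4 pathway genes on the second chromosome, the one with the CyO balancer in the wild-type genotype, included the 3 with the largest differences in either direction, Wnt4, arr and wg. The median absolute log2 difference was 0.34 over wg, Wnt4, Wnt6 and arr and 0.07 over the 6 genes on the third and X chromosomes. Over all tested genes the median absolute difference was 0.15 for chromosome 2 and 0.13 for the others. The labels give the balancer for wild type only, so the RNAi and the balancer cannot be told apart for any gene in this comparison, whatever its chromosome. The nearest protein-coding neighbours of the 10 genes were also examined. Of 16 outside the set 15 were matched in the table and 7 reached 1 FPKM. None of these was 2-fold apart, a count too small to read against the 4.41% and 3.20% of all tested genes, with CG7906 beside fz the furthest, at 22.2 and 11.3 FPKM.

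Further components of the pathway were taken from lists by role. Of 67 pathway components listed, the 10 genes included, 66 were found and 63 were tested. Of these, 1 was higher by 2-fold or more, 1 was lower by as much and the other 61 differed less, with a median of -0.001. Over all tested genes the shares were 4.41% higher and 3.20% lower. The lower gene was Wnt2. The higher one was Swim, named for a secreted protein that interacts with Wingless, at 2.75 FPKM in wild-type discs and 8.88 FPKM in RNAi discs, a ratio of 3.23. With a pseudocount of 5 the log2 difference of Swim was 0.84, within 2-fold. The higher haemocyte and salivary gland marker sums of the same library stand beside the Swim value, and their part in it was not tested.

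Genes that act on the ligand lay mostly within 2-fold. por, which encodes the acyltransferase that lipidates Wnts, was 28.3 FPKM in wild-type discs and 31.7 FPKM in RNAi discs, and wls, whose product carries them to the surface, was 94.8 and 97.6 FPKM. Notum, the gene of an enzyme that removes the lipid and a target of the pathway, was 15.4 and 21.6 FPKM, a log2 difference of 0.46. sgl, which makes a sugar precursor of heparan sulphate, was 43.8 and 29.6 FPKM, a difference of -0.55. Of 15 tested genes in this list, the other 14 besides Swim lay within 2-fold. Among all tested genes 4.41% were higher and 3.20% lower by as much, and the list is too small to read against those shares.

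The cytoplasmic and nuclear parts of the pathway had the narrowest range of differences. Over 17 tested transducer and destruction complex genes the log2 differences ran from -0.14 to 0.13. dsh, which encodes Dishevelled, was 30.6 FPKM in both libraries, Axn, the gene of the scaffold Axin, was 39.0 FPKM in wild-type discs and 37.7 FPKM in RNAi discs, and sgg, the gene of the kinase that marks Armadillo for destruction, was 79.9 and 80.7 FPKM. Over 14 nuclear partners of Armadillo they ran from -0.10 to 0.08. pan, which encodes Pangolin, was 42.1 and 44.7 FPKM, pygo 20.3 and 19.2 FPKM and the corepressor gene gro 82.6 and 84.6 FPKM. The 5 tested genes among other receptors and coreceptors ran from -0.20 for Ror to 0.27 for dnt, a gene of the Derailed family.

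Genes known to be activated by Wingless in the wing disc were lower in part. Of 11 in the list, all tested, 3 were lower by 2-fold or more and none was higher by as much, and the median was -0.39. Among all tested genes 3.20% were at least 2-fold lower. Dll, a homeobox gene of distal appendages, was 36.7 FPKM in wild-type discs and 13.1 FPKM in RNAi discs, a log2 difference of -1.42. The wing selector vg was 54.2 and 24.0 FPKM, a difference of -1.14. sens, a gene of sensory precursors, was 3.70 and 1.06 FPKM, a difference of -1.19, or -0.52 with a pseudocount of 5. The proneural genes ac, at 33.6 and 16.6 FPKM, and sc, at 25.5 and 16.3 FPKM, had differences of -0.97 and -0.61.

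Differences within the list were uneven. Those of nkd and fz3, both among the 10 genes, were -0.01 and -0.22, those of Notum and the homeobox gene ct were 0.46 and 0.50, and those of the other 7 ran from -1.42 to -0.38. With a pseudocount of 0.1, 4 of the list were lower by 2-fold or more, and with a pseudocount of 5 or a minimum of 5 FPKM, 2 were. Of 5 genes known to be repressed by Wingless in the disc none was 2-fold apart, beside 4.41% higher and 3.20% lower among all tested genes, a count too small to read against those shares. Besides wg, which limits its own domain, and fz2, these were dlp, the Myc gene dm (44.8 FPKM in wild-type discs and 34.3 FPKM in RNAi discs) and the cell cycle gene stg (58.1 and 57.0 FPKM).

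**Figure D4:**
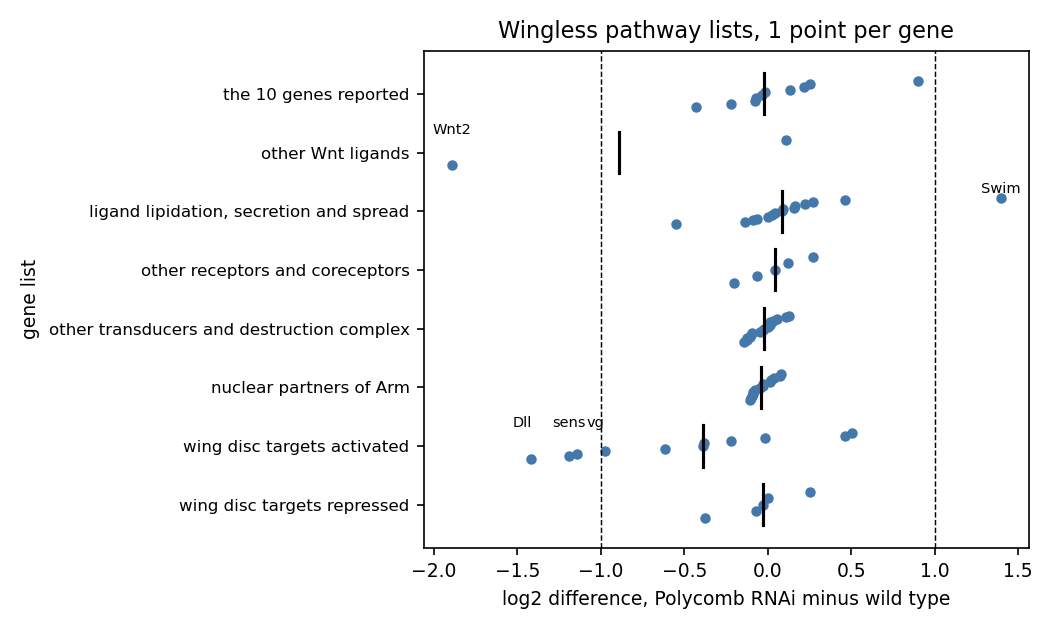
Log2 difference between Polycomb RNAi and wild type for each tested gene (1 point) of 8 Wingless pathway lists, with the list median as a black bar and 2-fold as dashed lines; the vertical offset of points has no meaning. Transducers and nuclear partners lie within 0.15 of 0, and the named genes beyond 2-fold are Wnt2, Swim, Dll, sens and vg.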

How the data were processed

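The authors deposited FPKM values for named genes, 1 column per RNA library, without counts. Tools listed in the submitters' processing notes, with no roles, are TopHat2 2.0.11, Bowtie 1.0.0, Cufflinks, SICER and CASAVA 1.4, and the build is dm3. For annotation and settings, neither is given in the sources used here. A row named by a dash (0.127% of all FPKM in wild-type and 0.206% in RNAi discs) was left out. Depth is unknown. The most frequent ratio of low values (0.005 to 0.3 FPKM in both, 1159 genes) was 0.96, with 19.6% of genes within 5% of it. At that ratio a read would be worth about as much in each library, but most of these genes lay further from it. Precision from counting cannot be given.

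Differences were log2 of FPKM plus a pseudocount of 1, for genes with at least 1 FPKM in either library. The call was 2-fold, computed with pandas 2.3.3. The code was run on simulated data with large planted changes, which does not measure how reliable the calls are. The genes, lists and settings were chosen with earlier results of these data known. All 10 genes are named. In the other lists, genes at least 2-fold apart and the further Wnt and Frizzled genes were to be named, with up to 4 of the largest differences. For the marker lists this was limited to genes 2-fold apart, with those of the salivary gland given as a group. Some marker genes short of 2-fold or with differences the other way were added. In the transducer and nuclear partner lists, genes were named for their role in place of the largest differences. Other genes were also named for their role, with their values known. Of 142 list symbols, frc was the 1 not found. A Release 6 gene table served for names, chromosome arms and gene order only, so no coordinates are given. Promoter and protein sequences were not used here.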

Additional observations from a re-analysis of the deposited data

How the results depend on the processing

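With a pseudocount of 0.1, 1 of the 10 pathway genes (Wnt4) was at least 2-fold higher in place of 0, as at 1.5-fold, and 2 of all pathway components were, as at 1.5-fold. That last count was 0 with a pseudocount of 5 and 0 among genes with a mean of 20 to 400 FPKM, a setting chosen after seeing the data, which leaves Swim out by its level. Of all tested genes, 388 were higher and 282 lower as reported. These counts were 570 and 415 with a pseudocount of 0.1, and 134 and 107 with one of 5. They were 189 and 186 when genes had to reach 5 FPKM, 719 and 569 at 1.5-fold, and 53 and 64 at 20 to 400 FPKM. Activated targets counted as lower numbered 5 at 1.5-fold in place of 3, 4 with a pseudocount of 0.1, and 2 with one of 5 or a minimum of 5 FPKM. With equal FPKM sums in both libraries the median of the 10 genes was -0.13 in place of -0.02. That scaling lowers every log2 difference by about 0.10, and the largest entry of the table held 9.41% of the wild-type sum and 16.4% of the RNAi sum. In the 9 settings compared, wg ran from 0.15 to 0.26, Wnt4 from 0.57 to 1.03 and arr from -0.53 to -0.40. The signs of all 10 differences stayed the same. A change of pseudocount, expression minimum or fold cannot alter a sign, so only a rescaling of the libraries could have done so. No paired analysis was possible because each genotype has 1 library, which also leaves no library to leave out.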

Other observations

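Among genes that act upstream of wg in the disc, 2 of 19, all tested, were lower by 2-fold or more in Polycomb RNAi, vg and ap, and none was higher by as much. Both are also among the wing disc epithelium markers, and vg is among the activated targets, so the counts of these lists are not separate. Over all tested genes 3.20% were lower and 4.41% higher, and the median log2 difference of the list was -0.20. ap, the selector of the dorsal compartment, was 144 FPKM in wild-type discs and 71.3 FPKM in RNAi discs, just past 2-fold and within it with a pseudocount of 5. The other 17 genes lay within 2-fold. They included nub (83.5 and 43.8 FPKM), fng (159 and 98.3 FPKM), rn (44.3 and 28.3 FPKM), Dr (54.6 and 36.3 FPKM) and the Notch ligand gene Ser (57.9 and 38.4 FPKM), and on the other side pnr (17.1 and 26.6 FPKM), zfh2 (74.8 and 99.4 FPKM), hth (138 and 169 FPKM) and the boundary gene ct (2.86 and 4.48 FPKM).

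The 3 tested genes whose pair of values lay nearest to that of wg were dnt (42.9 and 52.0 FPKM), CG12207 (43.5 and 50.0 FPKM) and CG6044 (44.2 and 51.0 FPKM), at distances of 0.02 to 0.04 on the log2 scale over the 2 libraries. With only 2 libraries such nearness is common and is given as a description.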
